A study of Mus musculus with 39 samples.

Results

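Sfrp1, Sfrp2, Sfrp4 and Sfrp5, which encode secreted Frizzled-related proteins, were followed together with Bmp3 and Npr3 in mouse adipose tissue labelled subcutaneous. The 6 genes were taken by name from the 29411 gene names on the array, and all 9 of their probes were read on all 39 arrays. The labels do not give the sex of the animals. C57BL/6J mice were divided at weaning, at 3 to 4 weeks of age, into 5 diet groups of 30 animals, and 5 animals of each group were killed every 3 weeks. LFC mice received a normal diet with 10% of its calories from fat. HFC mice received a diet with 60% of its calories from fat and with added sucrose. HF5, HF20 and HF75 mice received the HFC diet together with 5, 20 or 75 µg of KAL-1, an aqueous botanical formulation, and all 3 of these groups therefore carried the HFC diet as well.

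One-colour arrays covered LFC at 10 time points, namely 6, 10 and 14 days into the diet and then Week 0, 3, 6, 9, 12, 15 and 18, HFC at the same 10 and at Day 1, and each KAL-1 group at the 6 time points from Week 3 to Week 18. There was 1 array for each diet at each labelled time point. In the study's account the weeks were counted from Day 14 on, so Day 14 and Week 0 stand for the same time on the diet, with an array each in LFC and in HFC. All other spread within a diet came from different times. The series text speaks of 3 biological replicates per diet, and the labels do not say whether an array held the RNA of 1 mouse or of several. n below counts arrays. A level is log2 of a probe's processed signal minus log2 of the 75th percentile of its array, so a level of 0 is the brightness of that percentile and a difference of 1 between diets is 2-fold. Levels of different genes come from different probes and are not set against each other. In bulk tissue, fewer cells of a type and less RNA per cell cannot be told apart.

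Wnt ligands act on cells through Frizzled receptors, and the secreted Frizzled-related proteins carry a cysteine-rich domain like that of the receptors, with which they bind Wnts outside the cell. Wnt signalling is known to hold back the formation of adipocytes. Sfrp5 is known as a gene of mature adipocytes that is raised when white fat expands, while Sfrp1, Sfrp2 and Sfrp4 are also made by the stromal cells of fat. Bmp3 is an atypical member of the bone morphogenetic protein family that opposes signalling by its relatives. Npr3 encodes the receptor that clears natriuretic peptides, hormones that promote lipolysis in adipocytes. Mest, an imprinted gene known as a marker of expanding fat, and Lep, which encodes the adipocyte hormone leptin, are given beside them.

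Sfrp2, Sfrp4, Sfrp5 and Bmp3 were read by 1 probe each, Sfrp1 by 2 and Npr3 by 3. The Sfrp5 and Bmp3 probes are shown because the diet differences below rest on these single oligonucleotides. They are written in the orientation of the deposited table. The Sfrp5 probe has 1 reading frame of 3 with no stop codon, and the capitals in the Bmp3 probe mark a TAA stop codon near its end.

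Sfrp5: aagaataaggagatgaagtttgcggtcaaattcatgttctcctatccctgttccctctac

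Bmp3: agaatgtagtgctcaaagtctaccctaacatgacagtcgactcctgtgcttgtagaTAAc

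The Sfrp1 probes are shown, by their first 30 bases, because they did not report the same pattern.

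Sfrp1 probe used for the tests: cggaatcagtatagcgtggaaggagacagt

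Sfrp1 second probe: gtgcattagtaattagaaatagtctaacct

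The probe used for the tests was the one with the highest mean level over all arrays. The first Sfrp1 probe was well above background on 39 of 39 arrays, where the second was so on 8 of 39, and the correlation between them over the arrays was 0.36. The 3 Npr3 probes moved together, with correlations of 0.93 and 0.91 between the probe used and the others. The Sfrp5 probe was dim. It was well above background on 32 of 39 arrays, with 8 of 10 in LFC, 11 of 11 in HFC, 6 of 6 in HF5, 4 of 6 in HF20 and 3 of 6 in HF75. Bmp3 was well above background on 36 of 39 arrays, and the arrays that missed were 2 of LFC and 1 of HF75. Sfrp2, Sfrp4 and Npr3 were above it on every array with the probe used, and no spot of a member was saturated.

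The arrays were uneven. Their 75th percentile ran from 108 to 1285 intensity units and the share of spots well above background from 49.3% to 87.8%. Adipocyte markers were bright throughout, with the mean level of 8 of them between 2.51 and 5.91. A set of 6 arrays stood apart from the rest in 4 mesothelial markers, the genes of the cell sheet that covers visceral fat. These were HFC at Day 14, LFC, HF5, HF75 and HFC at Week 6, and HFC at Week 9. The mean of the 4 markers was between -2.20 and 1.28 on these 6 arrays and between -7.92 and -4.43 on the other 33. Msln, Upk3b, Wt1 and Lrrn4 were each well above background on 6 of 6 of them, and on 19, 2, 8 and 5 of the other 33. A transcription factor gene of subcutaneous fat, Tbx15, ran the opposite way. It was between -8.25 and -3.23 on the 6 arrays and well above background on 2 of them, while the other 33 lay between -2.44 and 3.18 with 33 of 33 above background. Tcf21, a gene of visceral fat, lay between -2.95 and 0.24 on the 6 and between -7.94 and -2.80 on the others that gave a value. Tbx15 and Tcf21 were chosen after their values were seen. Adipoq did not set them apart, with 3.89 to 6.64 on the 6 and 1.12 to 6.74 on the other 33. What tissue the 6 arrays held was not tested, and since 3 of them belong to HFC values without them are given beside the diet comparisons below. A further 6 arrays held most skeletal muscle RNA, with a mean of 9 muscle markers from 3.22 to 7.42 against at most 2.01 on the rest.

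**Figure D1:**
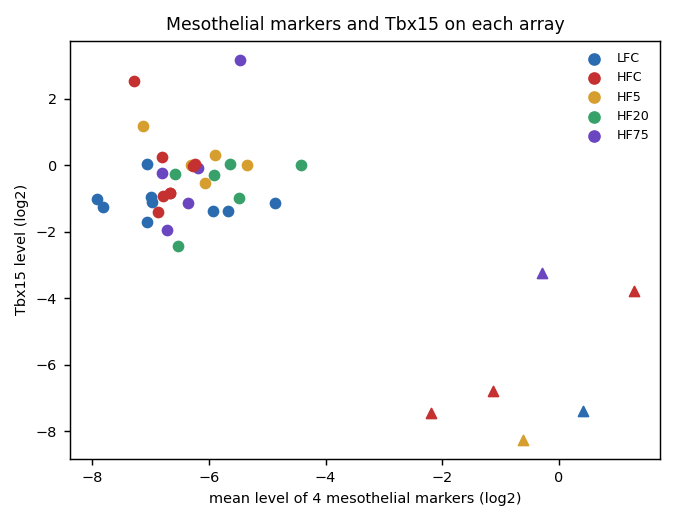
Level of Tbx15 against the mean level of 4 mesothelial markers (Msln, Upk3b, Wt1, Lrrn4) on the 39 arrays, both axes in log2 relative to the array's 75th percentile, 1 point per array coloured by diet. The 6 arrays at the right, with marker means of -2.20 to 1.28, are those with Tbx15 at -3.23 or less, and the other 33 all have Tbx15 at -2.44 or more.

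Among the 6 genes and on all arrays, Sfrp5 and Bmp3 had the largest differences between the high-fat and the normal diet once the Week 3 arrays were reached. Without the 6 arrays with mesothelial genes those of Sfrp4 and Sfrp2 were larger, at 2.55 and 2.36. Over the 6 late time points HFC had a mean Sfrp5 level of -3.07 ± 0.68 (SD, n = 6), where LFC had -4.51 ± 0.88 (SD, n = 6). For Bmp3 the HFC mean was -1.81 ± 1.16 (SD, n = 6), where that of LFC was -3.36 ± 0.98 (SD, n = 6). Both passed an unadjusted p of 0.05, and neither passed after Benjamini-Hochberg adjustment over all genes, where no gene at all passed. For Sfrp1, Sfrp2, Sfrp4 and Npr3 the diets overlapped widely on all arrays.

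**Figure D2:**
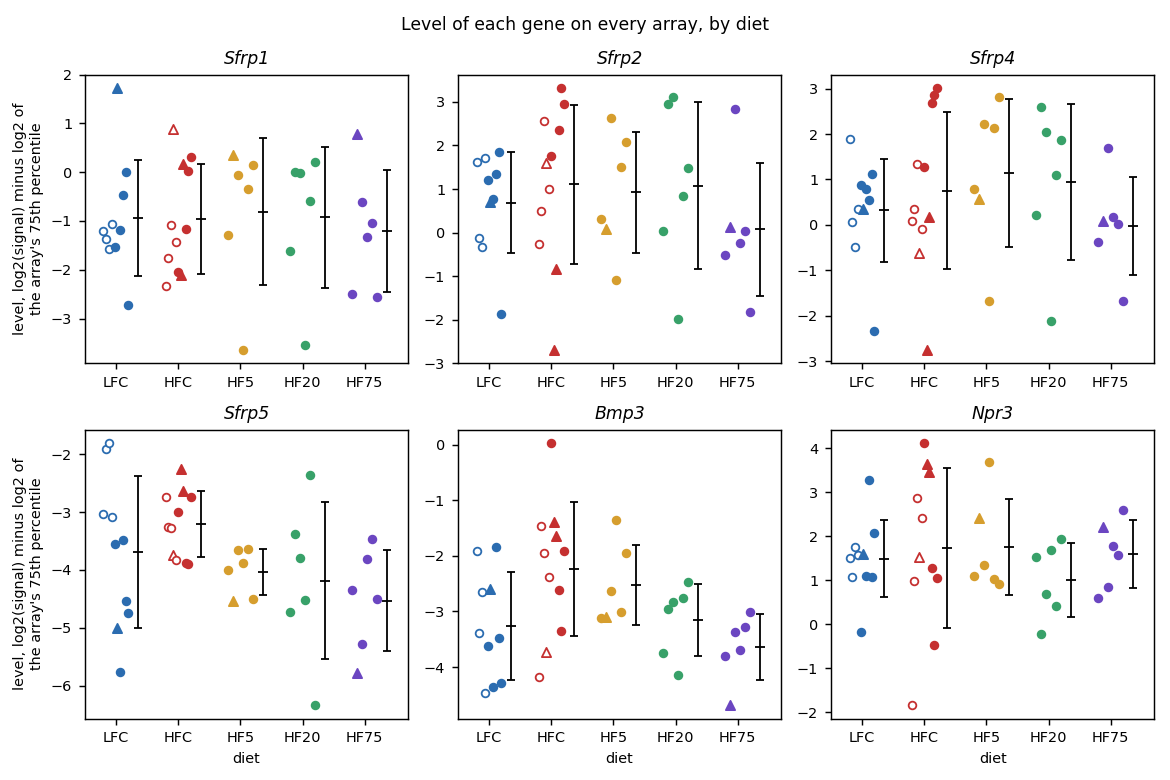
Level of each of the 6 genes (log2 relative to the array's 75th percentile) by diet, 1 panel per gene and 1 point per array. Open symbols are Day 1 to Week 0, filled symbols Week 3 to Week 18, triangles the 6 arrays with mesothelial genes, and black bars mean ± SD over the arrays of a diet. Bmp3 is highest in HFC, where the highest array (Week 3) reaches 0.04, and the Sfrp5 arrays of HFC span only -3.90 to -2.26.

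The Sfrp5 level changed place between the diets with time. In LFC it was -3.04 at Day 6, -1.91 at Day 10, -1.80 at Day 14 and -3.09 at Week 0. In HFC it was -3.25, -3.28, -3.74 and -3.83 at the same time points. HFC thus lay below LFC on 4 of 4 early pairs of arrays, of which Day 14 and Week 0 are the same time on the diet, and the ranges did not overlap. At the later time points, Week 3 to Week 18 in order, the LFC values were -3.55, -5.00, -5.77, -3.48, -4.54 and -4.74. The HFC values were -3.004, -2.26, -2.63, -3.88, -3.90 and -2.74. HFC was then the higher at 5 of 6 time points, all but Week 12, although the ranges overlapped.

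The mean Sfrp5 level of LFC was -2.46 ± 0.70 (SD, n = 4) early, against -4.51 ± 0.88 (SD, n = 6) late. In HFC it was -3.53 ± 0.30 (SD, n = 4) early, against -3.07 ± 0.68 (SD, n = 6) late. By limma the LFC difference, late minus early, was -2.05 (SE 0.45, unadjusted p = 0.000212, adjusted p = 0.255). It rests in part on bounds, since Sfrp5 was not well above background in LFC at Week 9 and Week 18. Among all genes 2.92% were lower in LFC at the late time points at an unadjusted p under 0.05, and 1 of the 6 members was among them. In HFC the late minus early difference was 0.46 (SE 0.45, unadjusted p = 0.324, adjusted p = 0.858), and 0.07 (unadjusted p = 0.896) without the 6 arrays with mesothelial genes. The interaction, which tests whether the diet difference itself changed from early to late, was 2.51 (SE 0.71, unadjusted p = 0.00487, adjusted p = 1). Only Sfrp5 of the 6 members passed at an unadjusted p of 0.05 there, against 0.805% of all genes in that direction. Without the 6 arrays with mesothelial genes the interaction was 1.47 (unadjusted p = 0.0561), and the LFC difference was -1.95 (unadjusted p = 0.00101, adjusted p = 0.303). Normexp background correction, run in place of the scanner's own, added an offset of 50 intensity units to every spot. The median processed signal was 48 for the Sfrp5 probe and 85 for the Bmp3 probe. With an offset of that size, normexp values cannot decide the direction of a difference in these 2 genes. With normexp the LFC difference was -0.10 and the interaction 0.42, and neither passed an unadjusted p of 0.05. The LFC difference was -2.46 with array quality weights, with an adjusted p of 0.0384. Early and late arrays also differ in the age of the mice and mostly in scan day, and these cannot be told apart within a diet.

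**Figure D3:**
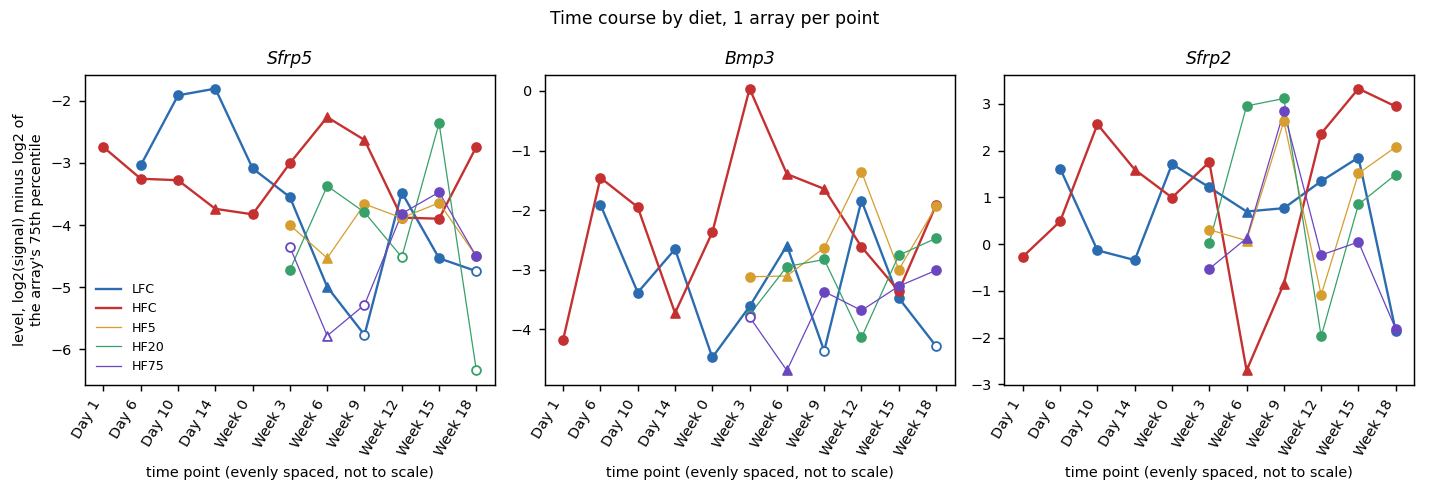
Levels of Sfrp5, Bmp3 and Sfrp2 (log2 relative to the array's 75th percentile) at each time point, evenly spaced and not to scale in time, with 1 line per diet. Open symbols are arrays on which the probe was not well above background and triangles the 6 arrays with mesothelial genes. Sfrp5 in HFC lies below LFC at the 4 time points from Day 6 to Week 0 and above it at 5 of the 6 from Week 3 on.

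The late Sfrp5 difference between HFC and LFC was 1.44 (SE 0.51, 2.72-fold, unadjusted p = 0.0101, adjusted p = 0.851). Its 95% interval ran from 0.38 to 2.51. HFC at Week 6 and Week 9, which held the largest differences at 2.73 and 3.14, were arrays with mesothelial genes. Without such arrays the difference was 0.94 (SE 0.59, unadjusted p = 0.128). Without Week 9 it was no longer past the threshold either, with an unadjusted p of 0.0674. LFC at Week 9 and Week 18 were not well above background. With normexp the sign turned, to -0.20. The part of dimness and of the mesothelial arrays in the Sfrp5 difference was not tested.

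Bmp3 differed in the same direction early and late. In LFC it was -1.91 at Day 6, -3.38 at Day 10, -2.66 at Day 14 and -4.47 at Week 0, and in HFC it was -1.46, -1.95, -3.73 and -2.37. Late, the LFC levels were -3.62, -2.60, -4.36, -1.84, -3.48 and -4.28. The HFC levels were 0.04, -1.40, -1.64, -2.62, -3.36 and -1.91. HFC was the higher at 8 of 10 time points, with Day 14 and Week 12 the exceptions, and the ranges overlapped. Day 14 and Week 0, the same time on the diet, gave opposite differences, -1.07 and 2.10. The HFC array of Day 14 was 1 of those with mesothelial genes. HFC at Week 3 was the highest of all 39 arrays.

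Over the 10 time points the Bmp3 difference was 1.22 (SE 0.44, 2.33-fold, unadjusted p = 0.0173, adjusted p = 0.805). It was 1.34 (unadjusted p = 0.0268) without the arrays with mesothelial genes. Bmp3 was the only member past an unadjusted p of 0.05 there, where 1.97% of all genes were higher and 3.86% lower in HFC at that threshold. Bmp3 was not well above background in LFC at Week 9 and Week 18, where the differences were 2.72 and 2.37, so 4 of the 6 late LFC arrays measured it. For the late time points the difference was 1.55 (SE 0.52, 2.92-fold, unadjusted p = 0.0065, adjusted p = 0.851). In that span 2 of the 6 members, Bmp3 and Sfrp5, were higher in HFC at an unadjusted p under 0.05, against 2.28% of all genes higher and 2.77% lower. Without the arrays with mesothelial genes the late Bmp3 difference was 1.51 (SE 0.63, unadjusted p = 0.0285). Leaving out each time point in turn kept it between 1.13 and 2.01, the unadjusted p reaching 0.0464 without Week 3. Without both Week 3 and the arrays with mesothelial genes it was 0.77 (unadjusted p = 0.229). With normexp the late difference was 0.29 and that over 10 time points 0.20, and neither passed an unadjusted p of 0.05. Mest and Lep were higher in HFC at the same unadjusted threshold. The late Mest difference was 2.09 (SE 0.54, unadjusted p = 0.00083, adjusted p = 0.851), and the late Lep difference was 1.81 (SE 0.87, unadjusted p = 0.0488, adjusted p = 0.851). Without the arrays with mesothelial genes Mest was at 1.87 (unadjusted p = 0.0137) and Lep at 0.97 (unadjusted p = 0.355).

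On all 30 arrays the mean Sfrp5 and Bmp3 levels of the KAL-1 groups were below HFC. For Sfrp5 the doses are not ranked, since the HF20 arrays of Week 12 and 18 and the HF75 arrays of Week 3, 6 and 9 were not well above background. For Sfrp5 the late levels of HF5 lay between -4.53 and -3.64, with -3.94 as the median. Those of HF20 lay between -6.34 and -2.36, with -4.16 as the median, and those of HF75 between -5.78 and -3.47, with -4.43 as the median. All 3 ranges overlapped that of HFC, and 5 of 6 arrays of HF5, 5 of 6 of HF20 and 4 of 6 of HF75 were below the HFC array of their time point. The HF20 array of Week 15, which held 4936 spots with an outlier flag, gave the highest value of the 3 groups.

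The Sfrp5 difference from HFC was -0.97 (SE 0.51, unadjusted p = 0.0726) in HF5. It was -1.12 (SE 0.51, unadjusted p = 0.0408, adjusted p = 0.997) in HF20. In HF75 it was -1.47 (SE 0.51, unadjusted p = 0.00908, adjusted p = 0.863). The 3 HF75 arrays below that limit were at -1.35, -3.52 and -2.66 from HFC, and the 3 that measured Sfrp5, Week 12, 15 and 18, at 0.06, 0.43 and -1.77. The 2 HF20 arrays below it were at -0.64 and -3.60, and the other 4 between -1.72 and 1.54. These differences therefore rest in part on values that are only bounds. Without the arrays with mesothelial genes none of the 3 passed an unadjusted p of 0.05, the differences being -0.46, -0.87 and -0.81. Without the arrays with most muscle RNA the HF20 difference had an unadjusted p of 0.0504. With normexp the HF20 and HF75 differences turned positive, at 1.03 and 0.17. That of HF5 stayed negative, at -0.37. With the normexp offset of 50 these signs do not decide the direction.

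For Bmp3 the HF5 levels lay between -3.12 and -1.35, with -2.82 as the median. Those of HF20 lay between -4.14 and -2.47, with -2.89 as the median, and those of HF75 between -4.69 and -3.01, with -3.53 as the median. The highest HF75 array was above only 1 of the 6 HFC arrays, that of Week 15 at -3.36. Below the HFC array of their time point lay 4 of 6 arrays of HF5, 5 of 6 of HF20 and 5 of 6 of HF75. The Bmp3 difference was -0.71 (SE 0.52, unadjusted p = 0.183) in HF5 and -1.34 (SE 0.52, unadjusted p = 0.0166, adjusted p = 0.997) in HF20. In HF75 it was -1.82 (SE 0.52, 3.54-fold, unadjusted p = 0.00181, adjusted p = 0.863), with a 95% interval from -2.89 to -0.75. The largest of the HF75 differences, -3.83 at Week 3, came from an array on which Bmp3 was not well above background. The HF75 value therefore rests in part on a bound. With normexp the HF20 difference turned positive, at 0.23, and that of HF75 was -0.51 and not past an unadjusted p of 0.05.

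No member passed an unadjusted p of 0.05 in HF5, against 0.645% of all genes lower at that threshold. In HF20 it was 2 of 6, Sfrp5 and Bmp3, against 1.28% of all genes. In HF75 the same 2 of 6 passed, against 3.12% of all genes lower and 1.91% higher. With the 3 doses pooled Sfrp5 was lower by -1.18 (SE 0.42, unadjusted p = 0.0098) and Bmp3 by -1.29 (SE 0.42, unadjusted p = 0.00562), the background there being 1.97%. The adjusted p was 1.00 for both. Neither passed without the mesothelial arrays, at -0.72 (unadjusted p = 0.167) and -1.01 (unadjusted p = 0.0767). Without the mesothelial arrays the Bmp3 difference was -0.41 in HF5, -1.19 in HF20 (unadjusted p = 0.0777) and -1.42 in HF75 (unadjusted p = 0.0378). Leaving out Week 3 as well, the HF75 difference was -0.62 (unadjusted p = 0.332). Under normexp the pooled doses were at -0.23 for Bmp3 and 0.28 for Sfrp5. Each KAL-1 comparison uses the same 6 HFC arrays as the diet comparison, so a high HFC array enters all of them, and the doses were not tested against each other. For Bmp3 the order of the late means was HFC, HF5, HF20, LFC, HF75. No pair of neighbours in it differed by more than the SD of the wider group. LFC at Week 9 and Week 18 and HF75 at Week 3 were not well above background for Bmp3. The places of LFC and HF75 in the order therefore rest in part on bounds. No such order is given for Sfrp5, which was not well above background on more of the arrays.

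**Figure D4:**
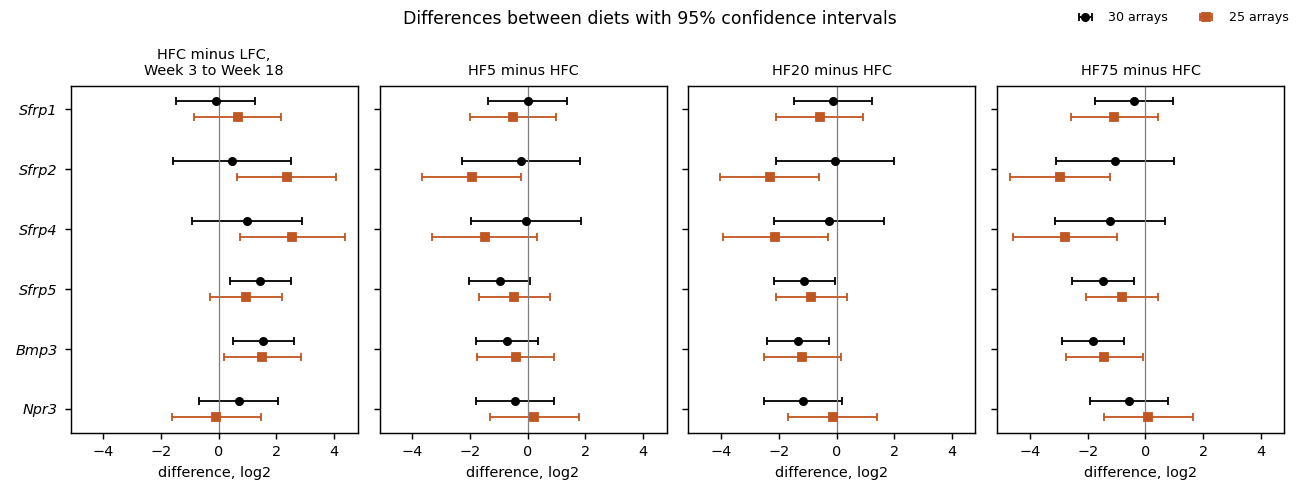
Differences between diets for each of the 6 genes (log2) with 95% intervals from limma, from Week 3 to Week 18. Black points use all 30 arrays and orange points the 25 arrays left without those with mesothelial genes. For HF75 minus HFC the Bmp3 interval from -2.89 to -0.75 lies below 0, and the Sfrp2 and Sfrp4 intervals clear 0 only among the orange points. Bmp3 was not well above background on the HF75 array of Week 3.

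The deposited ratios of HF5 and HF20 at Week 12 matched each other's array rather than their own, with correlations of 0.998 and 0.999 against 0.661 and 0.664. Which labels are right was not tested. With these 2 arrays exchanged the Sfrp5 difference was -1.07 (unadjusted p = 0.0485) in HF5 and -1.01 (unadjusted p = 0.0621) in HF20. The Bmp3 difference was then -1.17 (unadjusted p = 0.0367) in HF5 and -0.87 (unadjusted p = 0.113) in HF20. HF75 is not touched by the exchange.

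Sfrp2 and Sfrp4 varied widely between arrays and gave no diet difference in the whole set. Sfrp2 ran from -2.70 to 3.33 and Sfrp4 from -2.76 to 3.02 over the 39 arrays. The late HFC levels of Sfrp2, in the order of the weeks, were 1.76, -2.70, -0.84, 2.37, 3.33 and 2.95. Those of Sfrp4 were 1.27, -2.76, 0.17, 2.67, 2.86 and 3.02. The low values in both genes were Week 6 and Week 9, which are the HFC arrays with mesothelial genes. None of the other arrays with such genes was as low as HFC at Week 6. At that time point Sfrp2 was 0.70 in LFC, 0.08 in HF5 and 0.13 in HF75, and Sfrp4 was 0.34, 0.57 and 0.08. HFC and LFC were both such arrays there, and HFC was lower, by -3.40 in Sfrp2 and -3.10 in Sfrp4. In LFC the Sfrp2 levels were 1.22, 0.70, 0.77, 1.35, 1.85 and -1.86, and those of Sfrp4 were 0.87, 0.34, 0.79, 0.56, 1.13 and -2.33. The low array in both was Week 18, the dimmest array of all. On all arrays the late HFC minus LFC difference was 0.47 (95% interval -1.57 to 2.51) for Sfrp2 and 0.98 (-0.93 to 2.89) for Sfrp4.

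Without the 6 arrays the picture for these genes was different. HFC exceeded LFC at 4 of 4 time points in both. Week 6 and Week 9, where HFC had been the lower in both genes, were no longer compared. The difference was 2.36 (SE 0.82, 5.14-fold, unadjusted p = 0.00976, adjusted p = 0.602) for Sfrp2. For Sfrp4 it was 2.55 (SE 0.86, 5.84-fold, unadjusted p = 0.00857, adjusted p = 0.592). The 3 members higher at an unadjusted p under 0.05 were then Sfrp2, Sfrp4 and Bmp3, against 4.48% of all genes. No gene passed the adjusted threshold. The 4 HFC arrays left had Sfrp2 from 1.76 to 3.33, and the 5 LFC arrays from -1.86 to 1.85, so the ranges overlapped narrowly. For Sfrp4 they ran from 1.27 to 3.02 and from -2.33 to 1.13 and did not overlap. Week 18, where LFC is the dimmest array, held the largest differences. At Week 3, 12, 15 and 18 HFC exceeded LFC by 0.54, 1.02, 1.47 and 4.81 in Sfrp2, and by 0.40, 2.12, 1.73 and 5.35 in Sfrp4. With Week 18 left out as well, the difference was 1.70 (unadjusted p = 0.0414, adjusted p = 0.889) for Sfrp2 and 1.80 (unadjusted p = 0.0296, adjusted p = 0.858) for Sfrp4.

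The KAL-1 groups were also below HFC in both genes on these arrays. Sfrp2 differed from HFC by -1.94 (unadjusted p = 0.0291) in HF5, -2.32 (unadjusted p = 0.0108) in HF20 and -2.96 (SE 0.82, unadjusted p = 0.00194, adjusted p = 0.449) in HF75. Sfrp4 differed by -1.49 (unadjusted p = 0.101) in HF5, -2.13 (unadjusted p = 0.0241) in HF20 and -2.79 (SE 0.86, unadjusted p = 0.00463, adjusted p = 0.477) in HF75. At the time points that kept both arrays, every KAL-1 array was below HFC in both genes. Week 12 held the largest differences of HF5 and HF20. Their arrays were scanned on another day than that of HFC there, and scan day and dose cannot be told apart at that time point. With Week 12 left out as well, Sfrp4 differed by -0.68 (unadjusted p = 0.416) in HF5 and -1.36 (unadjusted p = 0.115) in HF20, and Sfrp2 by -1.52 (unadjusted p = 0.0916) and -1.78 (unadjusted p = 0.0523). In HF75 the unadjusted p of both genes stayed at 0.0234 or less whichever of Week 3, 12, 15 and 18 was left out. Lower at an unadjusted p under 0.05 were 1 member in HF5 against 1.17% of all genes, 2 in HF20 against 2.5%, and 3 in HF75, Bmp3 included, against 5.93%. These comparisons all rest on the same 4 HFC arrays. On all 30 arrays the differences were between -1.07 and -0.06 for Sfrp2 and between -1.23 and -0.06 for Sfrp4, and the lowest unadjusted p was 0.197.

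Sfrp2 and Sfrp4 varied together with stromal, macrophage and lymphocyte genes of the tissue. Over the 39 arrays the correlation of their levels was 0.90, and 0.93 within time points. With the mean of 10 progenitor and fibroblast markers (Pdgfra, Dpp4, Pi16, Cd34, Ly6a, Col1a1, Col3a1, Dcn, Lum and Fbn1) Sfrp4 had a correlation of 0.95 and Sfrp2 of 0.92. Without the 6 arrays with mesothelial genes these were 0.94 and 0.93, and without the 2 arrays farthest from the median of the markers 0.93 and 0.90. With the mean of 7 macrophage markers the correlation was 0.50 for Sfrp4 and 0.57 for Sfrp2, and 0.75 and 0.80 without the 6 arrays. With that of 8 lymphocyte markers it was 0.49 for Sfrp4 and 0.55 for Sfrp2, and 0.43 and 0.47 without the 6 arrays. With the 8 adipocyte markers it was -0.42 and -0.35, and -0.70 and -0.60 within time points. The arrays share their scaling and, within a time point, mostly their scan day, so these values are descriptions. The 5 genes most like Sfrp2 among 19069 genes were Pdgfrl, Fndc1, Ogn, Sfrp4 and Srpx, with correlations from 0.90 to 0.92. Those most like Sfrp4 were Fndc1, Mfap5, Lrrc17, Sfrp2 and Antxr1, from 0.90 to 0.93. Ogn and Mfap5 encode proteins of the extracellular matrix. On the late arrays without mesothelial genes the HFC mean of the progenitor and fibroblast markers was 4.28 ± 0.63 (SD, n = 4). The LFC mean was 3.34 ± 0.84 (SD, n = 5). The markers averaged 3.82 ± 1.02 (SD, n = 5) in HF5, 3.68 ± 0.95 (SD, n = 6) in HF20 and 3.10 ± 0.99 (SD, n = 5) in HF75. The markers thus stood highest in HFC, where Sfrp2 and Sfrp4 did, and lowest in HF75, and their lowest LFC value, 1.96, was that of Week 18. The macrophage markers averaged 0.62 ± 0.47 (SD, n = 4) in HFC on these arrays. In LFC the mean was 0.07 ± 0.57 (SD, n = 5) and in HF75 -0.51 ± 1.37 (SD, n = 5). The lymphocyte markers went the other way between HFC and LFC, at -3.16 ± 1.45 (SD, n = 4) and -1.97 ± 2.15 (SD, n = 5). In HF75 they averaged -3.66 ± 1.73 (SD, n = 5). The part of these marker lists in the Sfrp2 and Sfrp4 differences was not tested.

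**Figure D5:**
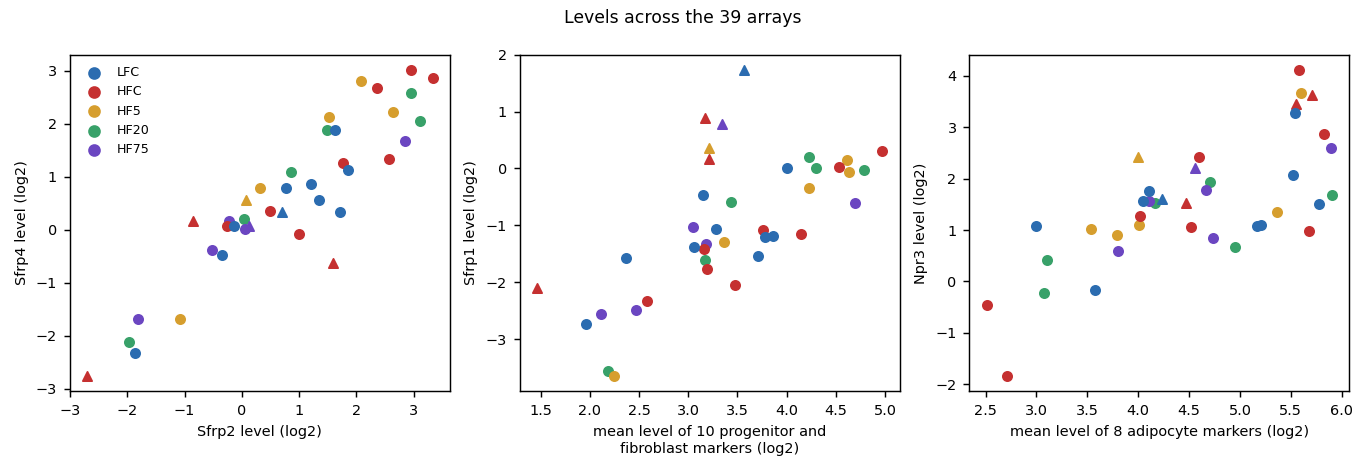
Levels over the 39 arrays, each axis in log2 relative to the array's 75th percentile and each point 1 array: Sfrp4 against Sfrp2, Sfrp1 against the mean of 10 progenitor and fibroblast markers, and Npr3 against the mean of 8 adipocyte markers. Triangles are the 6 arrays with mesothelial genes. The correlations are 0.90, 0.66 and 0.71, and in the middle panel several triangles lie above the other points.

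Sfrp1 did not differ between the diets beyond the spread of the arrays. Late, LFC lay between -2.72 and 1.73, with -0.83 as the median, and HFC between -2.11 and 0.30, with -0.57 as the median. HF5 ran from -3.65 to 0.36 with -0.21 as its median, HF20 from -3.55 to 0.20 with -0.30, and HF75 from -2.56 to 0.79 with -1.18. All 5 ranges overlapped, and the lowest value of both HF5 and HF20 was Week 12. The late difference between HFC and LFC was -0.11, with a 95% interval from -1.47 to 1.25, and that between HF75 and HFC was -0.40, with an interval from -1.76 to 0.96. Without the 6 arrays the first was 0.65 (95% interval -0.85 to 2.15, unadjusted p = 0.372), with HFC above LFC at 2 of 4 time points. The second was -1.08 (95% interval -2.58 to 0.42, unadjusted p = 0.149), with HF75 below HFC at 4 of 4. HF5 and HF20 differed from HFC by -0.01 and -0.12 on all arrays and by -0.51 and -0.58 without the 6. A 2-fold change in either direction lies inside the interval of the first on all arrays.

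The 6 arrays with mesothelial genes were high in Sfrp1. Their median was 0.57, against -1.19 on the other 33. Their highest, LFC at Week 6, was 1.73, and their lowest, HFC at Week 6, was -2.11. The correlation of Sfrp1 with the progenitor and fibroblast markers was 0.66 over 39 arrays and 0.87 without the 6. With the macrophage markers it was 0.64 and 0.74, and with the mesothelial markers 0.54 and 0.20. With Sfrp2 it was 0.59 and 0.83, and with Sfrp4 0.59 and 0.86. The genes most like Sfrp1 were Ptgis, Rtn1, Dbn1, Penk and Mmp23, with correlations from 0.82 to 0.86. Ptgis encodes prostacyclin synthase and Penk the precursor of enkephalins.

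On all arrays Npr3 did not differ between the diets beyond the spread of the arrays. Its late LFC levels were -0.17, 1.60, 1.09, 3.28, 1.08 and 2.07, and its HFC levels were 4.12, 3.63, 3.45, 1.28, -0.47 and 1.05. HFC was above LFC at Week 3, 6 and 9 and below it at Week 12, 15 and 18. HF5 ran from 0.91 to 3.68 with 1.23 as its median, HF20 from -0.23 to 1.94 with 1.103, and HF75 from 0.59 to 2.59 with 1.67. The HFC minus LFC difference was 0.69 (SE 0.65, unadjusted p = 0.306), with a 95% interval from -0.67 to 2.04. It was -0.09 (unadjusted p = 0.903) when the arrays with mesothelial genes were left out. HF20 was below HFC by -1.17 (SE 0.65, unadjusted p = 0.0863) on all arrays and by -0.13 (unadjusted p = 0.86) without the arrays with mesothelial genes. Week 3 held the largest HFC value. Without it and those arrays HFC was below LFC, by -1.47 (unadjusted p = 0.00994, adjusted p = 0.325).

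Npr3 followed the adipocyte genes instead. Its correlation with the mean of 8 adipocyte markers (Adipoq, Plin1, Cidec, Fabp4, Lpl, Cfd, Lipe and Pparg) was 0.71 over 39 arrays and 0.82 within time points. With Lep it was 0.76 and 0.85. Without the 2 arrays farthest from the median of the other measure the first became 0.63 and the second 0.72. The genes most like Npr3 were Chst1, Sucnr1, Pkp2, Heph and Pparg, with correlations from 0.78 to 0.85. Sucnr1 encodes the succinate receptor, and Pparg, the master regulator of adipocyte formation, is itself 1 of the 8 markers. HFC at Day 1 had the lowest Npr3 level of all arrays, at -1.84.

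Bmp3 and Sfrp5 had a correlation of 0.38 over the 39 arrays, 0.53 within time points and 0.30 without the 2 arrays farthest from the median of Bmp3. Bmp3 had a correlation of 0.55 with Mest and 0.59 with Lep, which became 0.38 and 0.50 without the 2 farthest arrays and were 0.70 and 0.64 within time points. The genes most like Bmp3 were Serpina3c, Dram1, 3110043O21Rik, Slc1a5 and Slc16a12, from 0.72 to 0.78. Those most like Sfrp5 were 4930579E17Rik, Oip5, Fabp7, Wasf1 and Mcph1, from 0.61 to 0.70, and these were the lowest top correlations of the 6 members. With the mean of the 8 adipocyte markers Sfrp5 had a correlation of -0.01, and 0.11 within time points. It was 0.19 with Lep and 0.38 with Mest, and 0.26 and 0.34 within time points. Sfrp5 was not well above background on 7 of the 39 arrays, and the part of this in its correlations was not tested.

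No member had a trend over Week 3 to Week 18 with diet as a covariate. At an unadjusted p under 0.05 by limma, 9.13% of all genes rose and 6.33% fell. The change per week was between -0.01 and 0.03 log2 units for all 6, and the lowest unadjusted p was 0.579, for Sfrp4.

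The rest of the Wnt, BMP and natriuretic peptide systems was read from 8 lists of genes, 1 of which held 5 further genes tied to fat expansion. Of the 98 list genes tested from Week 3 to Week 18, 7 were higher and 3 lower in HFC than in LFC at an unadjusted p under 0.05, against 2.28% and 2.77% of all genes, and 0 passed after adjustment. Mest and Lep, chosen as genes known to move with fat expansion, were 2 of the 7, so the count is not independent of that choice. Of 12 Wnt ligands tested none passed in either direction, with a median difference of -0.02, and of 14 Wnt receptors none passed, with a median of 0.15. The median over all genes was -0.05. Of the BMP ligands and inhibitors 3 of 15 were higher and 0 lower, with a median of 0.39. Among them were Chrdl1, which encodes a BMP antagonist, with a difference of 1.17 (SE 0.42, unadjusted p = 0.0095), and the ligand gene Bmp2, with 1.45 (SE 0.60, unadjusted p = 0.0243). Both had an adjusted p of 0.851. Without the 6 arrays with mesothelial genes 14 list genes of 101 were higher and 0 lower, against 4.48% and 1.69% of all genes. These included 1 of 13 Wnt ligands, Wnt11 at 1.48 (unadjusted p = 0.0185), and 2 of 14 Wnt receptors, among them Fzd1 at 1.11 (unadjusted p = 0.0162). On all arrays Wnt11 had been at 0.75 and Fzd1 at 0.71. Chrdl1 was then at 1.15 (unadjusted p = 0.0415) and Bmp2 at 2.15 (unadjusted p = 0.00895).

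Among 15 receptors, mediators and targets of BMP and activin, Acvr2a, an activin receptor, differed by 0.95 (SE 0.33, unadjusted p = 0.00903) and Id3, a target gene of BMP signalling, by 0.91 (SE 0.40, unadjusted p = 0.0314). Smad9, which encodes a mediator of BMP receptors, was lower by -2.08 (SE 0.82, unadjusted p = 0.0183). Of 9 other secreted Wnt modulators 1 passed, Rspo3, an enhancer of Wnt signalling, at -1.08 (SE 0.45, unadjusted p = 0.0258). Its relative Rspo2 was at 1.18 (unadjusted p = 0.136). Of 20 intracellular and target genes of the pathway 1 passed, the transcription factor gene Tcf7, at -1.86 (SE 0.89, unadjusted p = 0.0473). Acvr2a stayed past that threshold without the 6 arrays, at 1.51 (unadjusted p = 0.000768). Id3 at 0.86 (unadjusted p = 0.0819), Smad9 at -1.33 (unadjusted p = 0.201), Rspo3 at -0.61 (unadjusted p = 0.267) and Tcf7 at -0.76 (unadjusted p = 0.428) did not. Rspo2 was then past it, at 1.96 (unadjusted p = 0.00673), as 1 of 2 higher among 10 secreted modulators. Of 8 natriuretic peptide genes none passed from Week 3 to Week 18, and of 5 further genes tied to fat expansion 2 passed, which were Mest and Lep. Over all 10 time points 6 of 93 list genes were higher and 6 lower, against 1.97% and 3.86% of all genes, and without the 6 arrays it was 3 and 1 of 95, against 1.3% and 1.85%. The smallest unadjusted p was that of Bmpr1a, a type I BMP receptor, which was higher in HFC by 0.64 (SE 0.21, unadjusted p = 0.00937), and by 0.76 (unadjusted p = 0.0219) without the 6 arrays. Of 10 Wnt ligands tested there 1 was higher and 2 lower. Wnt9a was at 0.62 (SE 0.26, unadjusted p = 0.033), Wnt10a at -1.24 (SE 0.49, unadjusted p = 0.0273) and Wnt6 at -1.03 (SE 0.45, unadjusted p = 0.0405). None of these 3 passed without the 6 arrays, with 0.56, -0.70 and -0.37. Of the 11 Wnt ligands tested without them, 2 others were higher and 0 lower. Nppb, which encodes the B-type natriuretic peptide, was lower by -0.58 (SE 0.23, unadjusted p = 0.0254), and by -0.69 (unadjusted p = 0.0232) without the 6 arrays. The other lower genes were Sost, an inhibitor of Wnt signalling, at -0.52, Dvl3, which encodes a protein that relays the signal from Frizzled receptors, at -0.56, and Ptrf, a gene of caveolae, at -0.51. None of these was past the threshold without the 6 arrays, with -0.48, -0.51 and -0.37. Among the higher genes Chrdl1 was at 0.82, Mest at 1.40 and Lep at 1.93, and without the 6 arrays none of them passed, with 0.77, 1.13 and 1.32.

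In HF75 against HFC 1 of the 98 list genes was higher and 4 lower, against 1.91% and 3.12% of all genes. When the arrays with mesothelial genes were left out it was 1 and 14 of 101, against 1.49% and 5.93%. Chrdl1 was at -1.78 (SE 0.42, unadjusted p = 0.000271, adjusted p = 0.863), a smaller p than that of any of the 6 members in that comparison. The BMP ligands and inhibitors had a median of -0.50, where that of all genes was 0.00. Their median was -1.05 without the arrays with mesothelial genes, with 6 of 16 lower, where that of all genes was -0.02. In the other doses the median of this list was above 0 on all arrays, at 0.10 in HF5 with 0 called and at 0.24 in HF20 with 1 higher and 1 lower. It was -0.24 and -0.06 without the arrays with mesothelial genes. Over all lists HF20 had 3 of 98 higher and 4 lower, against 2.96% and 1.28% of all genes, and HF5 0 and 2, against 0.717% and 0.645%. On the arrays without mesothelial genes it was 3 and 5 of 101 in HF20, against 1.75% and 2.5%, and 0 and 3 in HF5, against 0.386% and 1.17%. Mest differed by -1.91 (SE 0.54, unadjusted p = 0.00187) in HF75 and by -2.10 (SE 0.54, unadjusted p = 0.000816) in HF20, where it was below HFC at 6 of 6 time points. In HF5 it was at -1.14 (SE 0.54, unadjusted p = 0.047). Rspo2 was at -1.57 (unadjusted p = 0.0524) in HF75, -0.63 (unadjusted p = 0.423) in HF20 and -1.66 (unadjusted p = 0.0406) in HF5 on all arrays. On the arrays without mesothelial genes it was at -2.61 (unadjusted p = 0.000734) in HF75, -2.11 (unadjusted p = 0.00404) in HF20 and -2.40 (unadjusted p = 0.00149) in HF5. Chrdl1 was there at -1.88 (unadjusted p = 0.00206) in HF75, and Mest at -1.56 (unadjusted p = 0.0348) in HF75 and -1.62 (unadjusted p = 0.0296) in HF20. In HF5 Mest was then no longer past the threshold, at -0.90 (unadjusted p = 0.204). These comparisons share their HFC arrays with the diet comparison.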

How the data were processed

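Total RNA was labelled with Cy3 and hybridised to 1-colour Agilent arrays. Per the labels the authors used Feature Extraction 9.1, while the file headers give 10.5.1.1. The deposited scanner files hold background-subtracted, processed intensity (gProcessedSignal), and the authors' table of the whole series gives log2 ratios over LFC at the same time point, used here only as an alternative. The array's annotation and the reference table differ in build, so no coordinates are given. Levels were log2(gProcessedSignal) minus log2 of the array's 75th percentile, without control spots and outlier-flagged spots. Each gene was read by its brightest probe. Genes were kept if well above background on at least 10 of 20 or 6 of 30 arrays, and comparisons were fitted over all of them with limma 3.58.1 (R 4.3.3), time point as a block, and adjusted by Benjamini-Hochberg at 0.05. The code was tested on simulated data. The members, gene lists and alternatives were chosen with earlier results of these data known. Named genes were the members, Mest and Lep, the 5 genes most correlated with each member, and per list up to 3 genes of smallest p in each HFC against LFC comparison. Of the list genes the text gives only those past an unadjusted p of 0.05 in such a comparison, with all arrays or without the 6 with mesothelial genes, except that 1 list gene is not reported here. The number of arrays limits the precision.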

Additional observations from a re-analysis of the deposited data

How the results depend on the processing

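The 6 genes were recomputed under the alternatives, which gave 1420 values, though not every alternative was run in every comparison. Of these 1299 kept their direction, where called, and their side of an unadjusted p of 0.05, 56 lost it, 56 gained it and 9 reversed. The sign alone, called or not, changed in 159 of the 1420. With normexp background correction 5 reversed: Sfrp5 in HFC against LFC from Week 3 to Week 18 became -0.20, Sfrp5 in HF20 1.03, in HF75 0.17 and with the 3 doses together 0.28, and Bmp3 in HF20 0.23. Without both Week 3 and the 6 arrays with mesothelial genes, an alternative chosen after seeing the data, Npr3 became -1.47 in HFC against LFC from Week 3 to Week 18, 1.33 in HF5, 1.28 in HF75 and 1.13 with the 3 doses together, while Lep became -0.76 in HFC against LFC from Week 3 to Week 18, 0.56 in HF20 and 0.87 with the 3 doses together. Under normexp the median of all genes moved by 0.29 in HF20, 0.21 in HF75, 0.16 in the 3 doses together and -0.16 in HFC against LFC from Week 3 to Week 18. The normexp offset, 50 intensity units, was near the median Sfrp5 signal of 48. The cause of these shifts was not tested. The count of genes past the adjusted threshold in late against early LFC was 1 and became 0 with normexp, with no filter, with a filter on every array, with an intensity trend and robust prior, without the 6 arrays with mesothelial genes and without the 6 with most muscle genes, and 11 with array weights. Leaving out each time point gave 0 to 1. For the change per week, Week 3 to Week 18, it was 20 and became 1 with normexp, 3 with no filter, 4 with the mean of all probes, 1 when slides were a random block, 408 under array weights and 5 without the mesothelial arrays, and leaving out time points gave 0 to 2869. In HF20 against HFC it was 0 and became 7936 with normexp. The methods' t-test gave no gene after adjustment in any of 5 comparisons, and from 365 to 587 at an unadjusted p under 0.05. Leaving out 1 time point took the HF75 difference of Sfrp5 to an unadjusted p of at most 0.0707 (without Week 6), that in HF20 to 0.263 (without Week 18), and the HF20 difference of Bmp3 to 0.127 (without Week 3). The slide as a random block could not be estimated for the 20-array comparisons with the time point as a block. Sfrp5 was not well above background on 7 of 39 arrays, and the part of this in its differences was not tested.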
